A study of Mus musculus with 3 samples.

Results

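Glu-TTC is the glutamate tRNA with the anticodon TTC in DNA letters, and the mouse count table lists 8 gene copies of it among 446 tRNA genes. The copies were taken by name, those starting with tRNA-Glu-TTC, from the gene count table and from the fragment table of each library. All 8 had reads in all 3 libraries. Glu-TTC was selected on the genotype comparison of these same libraries, in particular on the higher read values of its 22-nt and 50-nt fragments in Alkbh3-/- tissue. The differences of Glu-TTC between genotypes are therefore given as descriptions, and where a fit across all fragments or isoacceptors includes Glu-TTC, its place in that fit supports nothing.

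Small RNA of 15 to 50 nt was cut from a gel and sequenced from mouse epididymis, the duct in which sperm mature, in 1 wild type library and 2 libraries from Alkbh3-/- mice. The animals received no treatment, and the labels give neither age nor strain. The names of the deposited wild type columns begin with B6 and those of the Alkbh3-/- columns do not, so a difference in strain cannot be told apart from the genotype. Alkbh3 encodes a demethylase that removes methyl groups such as 1-methyladenosine and 3-methylcytidine from nucleic acids. Library A and library B are the Alkbh3-/- samples in the order of the deposited columns, and the labels do not say which of them is replicate 1 or 2. Whether A and B came from separate animals is not stated, so their spread may be technical. The deposited tables used here hold RNA classes and tRNA genes, so neither the loss of Alkbh3 nor the tissue label was checked against marker genes.

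tRNAs carry amino acids to the ribosome, and under stress or during sperm maturation they are also cut in and around the anticodon loop into fragments. Fragments that end at the anticodon cut are called tRNA-halves, and those around 20 nt are short tRNA fragments. In the epididymis, such fragments of glycine and glutamate tRNAs are among the most abundant small RNAs and are taken up by sperm. Glu-TTC reads glutamate codons ending in A or G and in mammals carries a modified uridine at the first anticodon position.

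Reads of the 5 RNA classes summed to 15107055 in wild type, 15411457 in A and 21169908 in B, and levels are given as reads-per-million (RPM) of that sum. miRNA reads took 15.1% of the sum in wild type, 24.8% in A and 30.7% in B, while tRNA reads took 44.7%, 36.5% and 38.1%. The part of this shift in the RPM values was not tested, so ratios within Glu-TTC, which need no scaling, are given as well. In bulk tissue, fewer cells of a type and less RNA per cell cannot be told apart. With 1 library against 2, an exact permutation test could not give a p below 0.33.

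The gene counts of the 8 copies together came to 1745 RPM in wild type, 2428 RPM in A and 2919 RPM in B. Glu-TTC was thus higher in both Alkbh3-/- libraries, with a mean of 2674 ± 347 RPM (SD, n = 2) and a ratio of 1.53 to wild type. Among 56 isoacceptors, the tRNAs that share an amino acid and an anticodon, it ranked eighth in wild type, seventh in A and sixth in B. In Alkbh3-/- tissue the levels of His-GTG, at 3169 ± 650 RPM (SD, n = 2), overlapped with it, whereas those of Val-AAC, at 1653 ± 329 RPM (SD, n = 2), lay below. The other glutamate tRNA, Glu-CTC, was far more abundant, so that 100 Glu-CTC reads came with 5.64 Glu-TTC reads in wild type, 4.45 in A and 5.08 in B.

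The names of the copies place them in 3 sets. In the naming scheme of the genomic tRNA database, copies with the same set number have the same mature sequence, so reads of single copies within a set are uncertain. All 8 genes are 72 nt long, and all have the start and end of a tRNA in RefSeq GRCm38.p6, the assembly of mm10. None overlaps an exon of the GENCODE M21 annotation.

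Set 1 has 4 copies on 4 chromosomes. Glu-TTC-1-1 spans bases 58399315 to 58399386 of chromosome 7 (plus strand), and Glu-TTC-1-2 bases 104408667 to 104408738 of chromosome 9 (minus strand), both between annotated genes. Glu-TTC-1-3 spans bases 23463535 to 23463606 of chromosome 13 (plus strand) inside Btn1a1, a butyrophilin gene. Glu-TTC-1-4 spans bases 76152774 to 76152845 of chromosome 14 (plus strand), between genes. In set 2, Glu-TTC-2-1 spans bases 34434812 to 34434883 of chromosome 1 (minus strand), between genes. Glu-TTC-2-2 spans bases 79481668 to 79481739 of chromosome 14 (plus strand) inside Elf1, which encodes an ETS transcription factor.

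Both set 3 copies lie on chromosome 3, 40.7 kb apart, in a cluster of tRNA genes. Glu-TTC-3-1 spans bases 96346675 to 96346746 (plus strand) and Glu-TTC-3-2 bases 96387405 to 96387476 (minus strand), each inside the span of a long non-coding RNA gene, Platr30 and Gm17575. Of 20 other tRNA genes within 100 kb of the pair that had 10 or more reads, 18 were lower in both Alkbh3-/- libraries and 0 were higher in both. Their median ratio to wild type was 0.660 in A and 0.626 in B. Over all 367 tRNA genes with 10 or more reads, 47.4% were lower in both libraries. The gene counts of set 3 therefore went opposite to most of these neighbours. Many of the neighbours are copies of a few tRNAs, such as Asn-GTT, His-GTG and Gly-CCC, so they are not independent. Over all their copies, Asn-GTT had ratios of 0.217 in A and 0.310 in B, His-GTG 0.732 and 0.547, and Gly-CCC 0.640 and 0.664. Any part of the position on chromosome 3 was not tested.

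Set 3 had the largest ratios of the 3 sets. Its copies summed to 179 RPM in wild type, 647 RPM in A and 491 RPM in B, a ratio of 3.62 for A and 2.74 for B. Glu-TTC-3-1 had 962, 3392 and 3664 reads in wild type, A and B, and Glu-TTC-3-2 had 1740, 6579 and 6725. There were 1.81, 1.94 and 1.84 reads of Glu-TTC-3-2 per read of Glu-TTC-3-1 in the 3 libraries. As copies of 1 set have the same mature sequence, this steady ratio is not read as agreement between 2 genes.

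Sets 1 and 2 changed less, and mostly in library B. Set 1 summed to 896 RPM in wild type, 1113 RPM in A and 1484 RPM in B. Set 2 summed to 670, 668 and 945 RPM, so that library A was level with wild type and library B was above it. For both sets together the ratio to wild type was 1.14 in A and 1.55 in B. In the fragment tables the same ratio was 0.969 in A and 1.38 in B. The small rise of sets 1 and 2 in library A was thus seen in the gene counts only.

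**Figure D1:**
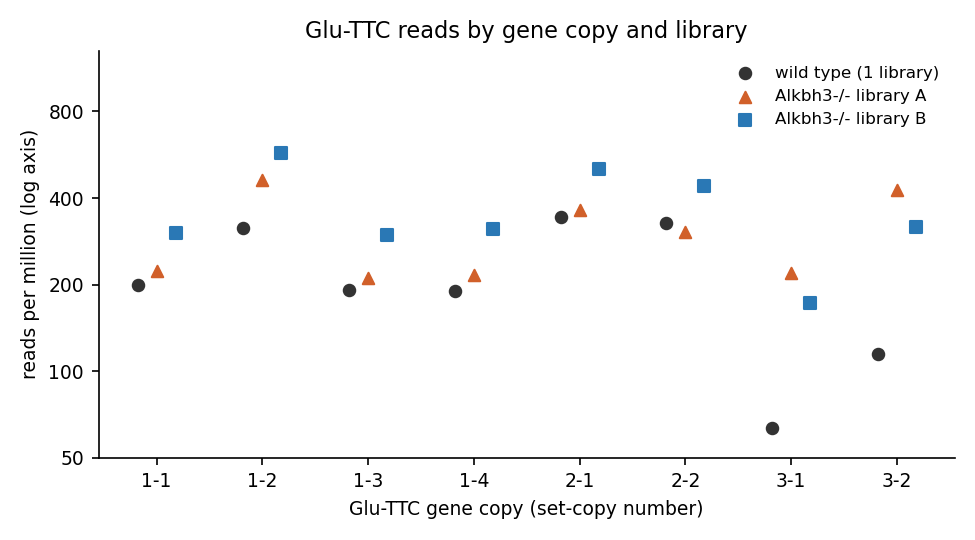
RPM (log axis) of each Glu-TTC gene copy in the gene count table, for the wild type library and Alkbh3-/- libraries A and B; each point is 1 library. The set 3 copies sit lowest in wild type, with ratios of 2.72 to 3.71, while in the other 6 copies library A stays near wild type except for copy 1-2.

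In the gene counts, 7 of the 8 copies were higher in both Alkbh3-/- libraries, against 22.1% of all 367 tRNA genes tested. The exception was Glu-TTC-2-2 with a ratio of 0.935 in library A. The 2 set 3 copies were at least 2-fold higher in both libraries, against 1.36% of all genes and 1.55% of the 129 genes with 1000 or more reads. Since the choice of Glu-TTC used this comparison, nothing is read from these counts. Glu-TTC-1-2 held more reads than its set partners, 1.62 times their mean in wild type, 2.14 times in library A and 1.89 times in library B. In the fragment tables, whose reads exceed the gene counts for most copies, it held 6263 wild type reads against 4420 to 4587 for its partners. In library A it held 6282 reads there, so its higher gene count in A had no match in the fragment tables.

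Set 3 made up 10.3% of the Glu-TTC counts in wild type, 26.6% in A and 16.8% in B. Per read of sets 1 and 2 there were 0.114 set 3 reads in wild type, 0.363 in A and 0.202 in B, a ratio free of scaling. Of the increase in Glu-TTC gene-count RPM over wild type, reads counted under set 3 made up 68.5% for A and 26.5% for B. The Alkbh3-/- libraries thus shared a higher Glu-TTC level but differed in the part counted under set 3. In the fragment tables, sets 1 and 2 had 2325 RPM in wild type, 2253 RPM in A and 3208 RPM in B. There they added nothing to the increase in A. Which gene copies the reads came from was not tested.

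The fragment tables give the reads of each copy at every length in 2 end classes whose meaning is not stated in the sources used here. They hold 39249 Glu-TTC reads in wild type, 49685 in A and 83614 in B, with lengths from 16 to 66 nt. The first class held 98.4% of the reads in wild type, 96.3% in A and 95.8% in B. Fragment levels come from these tables and cannot be set against the gene count levels above.

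The main Glu-TTC fragment was 34 nt long in the first class, with 946 RPM in wild type, 1473 RPM in A and 1666 RPM in B. It made up 36.4% of the Glu-TTC reads in wild type (exact Clopper-Pearson 95% interval 35.9 to 36.9%, counting error only), 45.7% in A and 42.2% in B. A smaller peak at 31 nt had 376, 377 and 492 RPM, and one at 33 nt had 312, 333 and 444 RPM. At 31 and 33 nt, library A was close to wild type and library B was higher.

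At the other abundant first-class lengths library B was the highest as well. Fragments of 29, 30, 32, 35 and 36 nt ranged from 106 to 166 RPM in wild type, from 117 to 160 RPM in library A and from 149 to 221 RPM in library B. Those of 26 nt had 42.5, 37.3 and 46.9 RPM. The 28-nt fragment went the other way, with 92.5 RPM in wild type, 45.7 RPM in A and 71.3 RPM in B. Its share of the Glu-TTC reads was 3.56% in wild type, 1.42% in A and 1.80% in B. Of 572 fragments from all tRNAs that reached 10 reads per library, 42% were lower by RPM in both Alkbh3-/- libraries. In each of the 6 copies of sets 1 and 2 the 28-nt RPM was lower in both, at 0.345 to 0.908 times wild type. Copies of a set have the same mature sequence, so these 6 are not independent and do not count as replication. By RPM, set 3 went the other way at 28 nt, at 1.65 times wild type in A and 2.21 times in B. It had 22 such reads in wild type, 37 in A and 68 in B. Its 28-nt share was lower in both, with 0.533% of the set 3 reads in wild type, 0.247% in A and 0.433% in B. Copy 3-2, with 18, 17 and 34 reads, was at 0.926 times the wild type RPM in A. The rise by RPM in A was thus counted under copy 3-1, which had 4, 20 and 34 reads.

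Split by set, the 34-nt peak showed where the Alkbh3-/- libraries parted. In set 3, 34-nt first-class reads numbered 2684 in wild type, 12579 in A and 11887 in B, which is 178, 816 and 562 RPM. They made up 65.0%, 84.0% and 75.7% of all set 3 reads. In sets 1 and 2 the 34-nt share was 33% in wild type, 29.2% in A and 34.4% in B, so it fell on both sides of wild type. The higher 34-nt share of Glu-TTC as a whole in Alkbh3-/- thus came with a larger part of set 3 and a higher 34-nt share within it. Set 3 held 10.5% of the Glu-TTC fragment reads in wild type, 30.1% in A and 18.8% in B. In library B the slightly higher share within sets 1 and 2 added to this. How much each added was not tested.

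**Figure D2:**
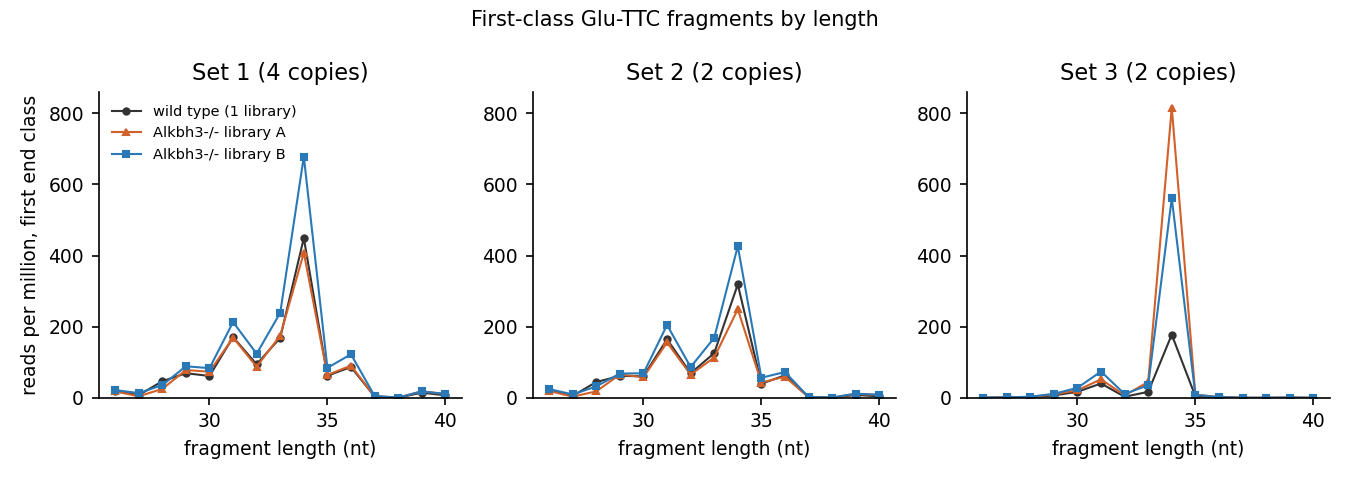
RPM of first-class Glu-TTC fragments by length (nt) in sets 1, 2 and 3, 1 line per library. All sets peak at 34 nt. In set 3 that peak rises from 178 RPM in wild type to 816 and 562 RPM in libraries A and B, and in sets 1 and 2 the line of library A lies on or below that of wild type at 34 nt.

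At 31, 33 and 34 nt in the first class, the set 3 reads per 100 Glu-CTC reads differed little between libraries. The proportion itself was far higher at 34 nt than at the other lengths. At 34 nt there were 9.21 set 3 reads per 100 Glu-CTC reads in wild type, 9.69 in A and 9.05 in B, although the Glu-CTC fragment itself numbered 29156, 129782 and 131417 reads. At 31 nt the proportions were 0.190, 0.192 and 0.208 per 100, and at 33 nt 0.215, 0.201 and 0.20. From 29 to 36 nt, leaving out 34 nt, all values lay between 0.145 and 0.244 per 100, and they differed most between libraries at 32 and 36 nt.

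Against sets 1 and 2 the same reads were not in proportion. At 34 nt there were 0.231 set 3 reads per read of sets 1 and 2 in wild type, 1.24 in A and 0.508 in B. At 34 nt the set 3 values thus moved with Glu-CTC, the tRNA whose anticodon differs from TTC in its first base, more than with the other Glu-TTC copies. The sources used here do not say how reads that match several tRNA genes were assigned, and the part of Glu-CTC reads in the set 3 counts was not tested.

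**Figure D3:**
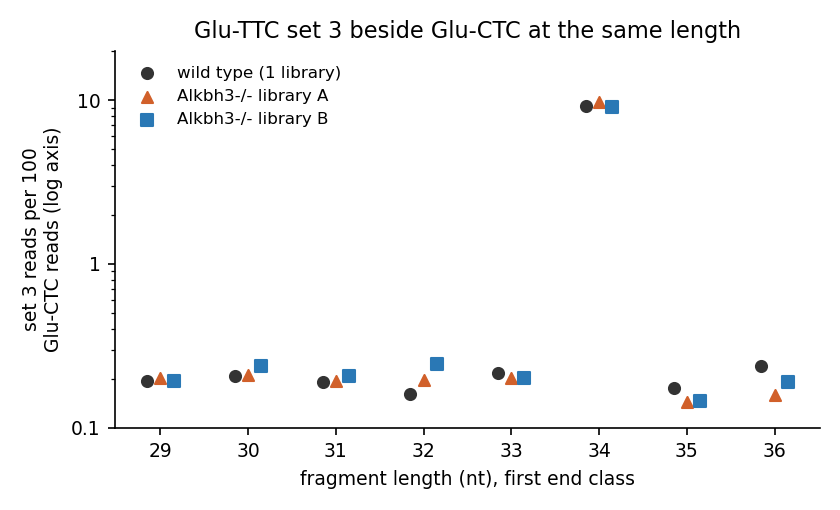
First-class reads of Glu-TTC set 3 per 100 Glu-CTC reads of the same length (log axis), by fragment length in nt, for each library. The 3 libraries lie close together at most lengths and differ most at 32 and 36 nt. Values are 9.05 to 9.69 at 34 nt and 0.145 to 0.244 at the other lengths from 29 to 36 nt.

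The second end class held 630 Glu-TTC reads in wild type, 1846 in A and 3545 in B, or 41.7, 120 and 167 RPM. Its share of the Glu-TTC reads was 1.61% in wild type (exact Clopper-Pearson 95% interval 1.48 to 1.73%), 3.72% in A and 4.24% in B. Both Alkbh3-/- shares were over 2-fold the wild type share. Of 24 isoacceptors whose fragment reads reached 1000 in each library, 29.2% had a higher second-class share in both Alkbh3-/- libraries and 4.17%, Glu-TTC itself, had one at least 2-fold higher in both. The choice of Glu-TTC used these reads, so nothing is read from that place.

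In sets 1 and 2 the second-class share was 1.70% in wild type and 5.10% in both library A and library B. In set 3 it was 0.775%, 0.501% and 0.516%, or 32, 75 and 81 reads. The second class of Glu-TTC was thus almost wholly that of sets 1 and 2.

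**Figure D4:**
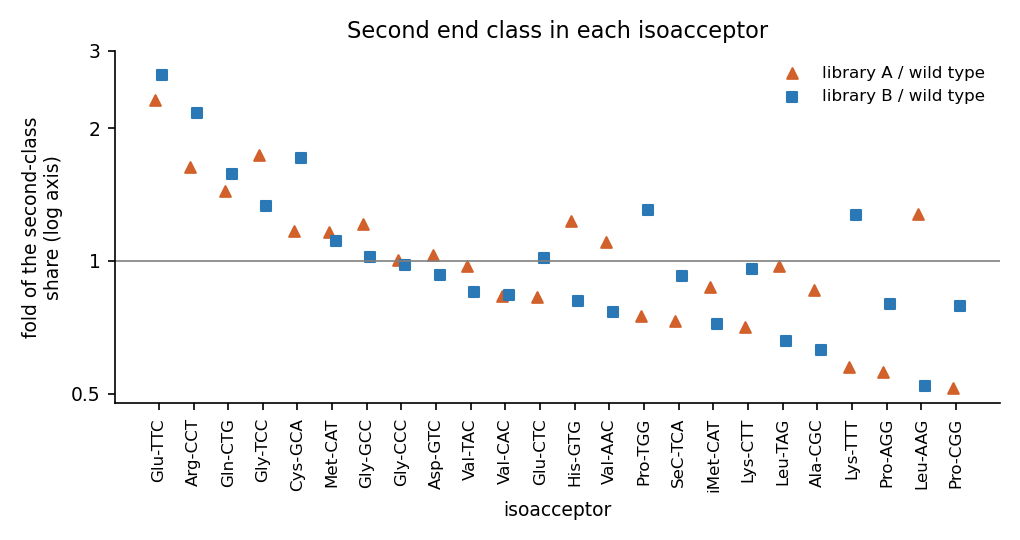
Share of the second end class in each Alkbh3-/- library divided by that in wild type (log axis), for 24 isoacceptors whose fragment reads reached 1000 in each library, ordered by the smaller of the 2 folds. Glu-TTC is first, with folds of 2.31 in A and 2.64 in B, and the grey line marks no difference.

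Short fragments of 20 and 22 nt led the second class. The 22-nt fragment had 105 reads in wild type, 543 in A and 1364 in B, or 6.95, 35.2 and 64.4 RPM. The 20-nt fragment had 183, 452 and 858 reads, or 12.1, 29.3 and 40.5 RPM. Both were higher in both Alkbh3-/- libraries, and library B was above library A. The 21-nt length between them held 3, 27 and 32 reads, so the 2 peaks were separate.

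The order of the 2 peaks also differed. In wild type there were 0.574 reads of 22 nt per read of 20 nt, against 1.20 in A and 1.59 in B. In Glu-CTC, the other isoacceptor with at least 20 reads of each in every library, this proportion was 0.837, 0.968 and 0.802. Reads under 26 nt in either class took 1.06% of the Glu-TTC reads in wild type, 2.38% in A and 3.10% in B. This share was higher in both libraries in 62.5% of the 24 isoacceptors and at least 2-fold higher in both in 12.5%. The latter were Glu-TTC, Lys-TTT with folds of 2.02 and 2.27, and SeC-TCA with folds of 2.83 and 2.34. The share of the 22-nt fragment within the second class of Glu-TTC was 16.7% in wild type, 29.4% in A and 38.5% in B.

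The 22-nt reads were higher in every copy of sets 1 and 2. Their number per copy ranged from 9 to 22 in wild type, from 71 to 112 in library A and from 177 to 294 in library B. By RPM this was 3.16 to 9.58 times wild type in A and 5.74 to 15.7 times in B. As these copies share sequence, they are not independent. Glu-TTC was selected on this fragment, so nothing is read from these ranges. Set 3 had 0 such reads of 4129 in wild type, 0 of 14968 in A and 0 of 15710 in B, which allows shares of up to 0.0727%, 0.0200% and 0.0191%. It also had 0 second-class reads of 20 and of 30 nt in each library.

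**Figure D5:**
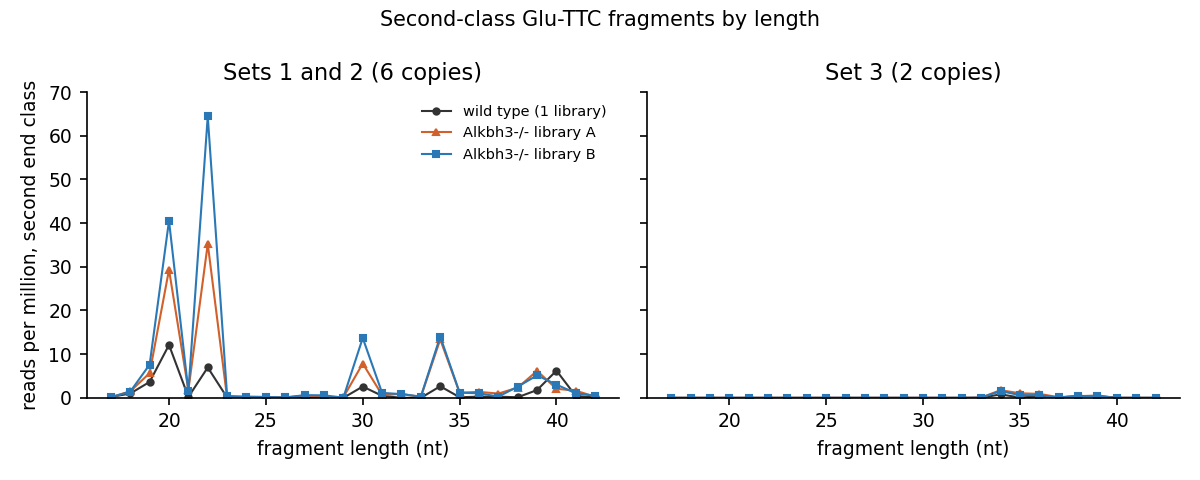
RPM of second-class Glu-TTC fragments by length (nt) in sets 1 and 2 and in set 3, 1 line per library. In sets 1 and 2 the 20-nt and 22-nt peaks stand highest in library B, at 40.5 and 64.4 RPM, and lowest in wild type, at 12.1 and 6.95 RPM, and in set 3 neither peak is present.

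Longer second-class fragments formed smaller peaks at 30, 34, 39 and 40 nt. The 30-nt fragment had 2.58 RPM in wild type, 7.85 RPM in A and 13.7 RPM in B. The 34-nt fragment had 3.44, 15.1 and 15.6 RPM. The 39-nt fragment had 2.25, 6.62 and 5.48 RPM. These were higher in both Alkbh3-/- libraries, but the 40-nt fragment was lower, with 94 reads in wild type, 32 in A and 64 in B, or 6.22, 2.08 and 3.02 RPM. There were accordingly 0.362 reads of 39 nt per read of 40 nt in wild type, 3.19 in A and 1.81 in B. The same proportion was 27.4, 44.5 and 35.1 in Asp-GTC and 0.993, 1.14 and 1.28 in Thr-AGT.

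At the long end, the first-class 50-nt fragment had 30 reads in wild type, 162 in A and 322 in B, or 1.99, 10.5 and 15.2 RPM. Reads over 50 nt numbered 22, 130 and 224. Together, reads of 50 nt or more took 0.132% of the Glu-TTC reads in wild type, 0.590% in A and 0.655% in B, folds of 4.45 and 4.95. Of the 24 isoacceptors, 33.3% had a higher share of such reads in both libraries, and 12.5% had one at least 2-fold higher in both, namely Glu-TTC, Gly-GCC with folds of 4.57 and 4.19, and Ala-CGC, which had 0 such reads in wild type and 1 in each Alkbh3-/- library. A higher share of long reads was therefore also seen in Gly-GCC, the most abundant tRNA source of these libraries.

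The 50-nt reads were again counted almost wholly under sets 1 and 2, with 2 to 13 per copy in wild type, 21 to 36 in library A and 36 to 86 in library B. Set 3 had 0, 0 and 1. Glu-TTC was selected on this fragment as well, so nothing is read from these ranges. The labels give 50 nt as the upper size of the excised gel piece. The first-class 44-nt fragment, at 113, 56 and 135 reads, had 7.48 RPM in wild type, 3.63 RPM in A and 6.38 RPM in B and was lower in both Alkbh3-/- libraries.

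In all, 82 Glu-TTC fragments, each a length in 1 end class, had reads, and 28 had 10 or more in each library. Of these 28, 17 were higher in both Alkbh3-/- libraries and 3 were lower in both, against 32.5% and 42% of all 572 fragments with that many reads. In the second class 7 of 8 were higher in both and in the first class 10 of 20. The share over all fragments was not taken by class, so these 2 counts have no reference. In a fit across all 572 fragments with edgeR's quasi-likelihood test, the 2 Glu-TTC fragments past an adjusted p of 0.05 were 22 nt in the second class and 50 nt in the first, the very ones on whose higher values Glu-TTC was selected, against 1.22% of all fragments that passed as higher and 1.05% that passed as lower. That fit restates the selection, and nothing is read from these counts.

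The 3 isoacceptors with the most similar fragment profiles were Lys-TTT, His-GTG and Leu-TAG. Likeness was measured by the total variation distance between shares by length and end class over the 3 libraries, which is 0 for equal profiles and 1 for profiles with nothing in common. It was 0.343 for Lys-TTT, 0.387 for His-GTG and 0.431 for Leu-TAG, out of 23 isoacceptors compared. For sets 1 and 2 alone, Lys-TTT at 0.307 and His-GTG at 0.360 stayed nearest. Lys-CTT at 0.412 and Glu-CTC at 0.422 then came before Leu-TAG at 0.463. Within Glu-TTC the distance was 0.0718 between sets 1 and 2, 0.414 between sets 1 and 3 and 0.448 between sets 2 and 3. Set 2 was therefore close to set 1, while set 3 was farther from either than Glu-TTC as a whole was from Lys-TTT.

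Lists of related tRNAs give the setting. Of 4 tested tRNAs known for a 5-methoxycarbonylmethyl group on the wobble uridine, Gln-TTG was lower in Alkbh3-/- by edgeR (log2 fold change -0.64, SE 0.19, adjusted p = 0.0086), and Glu-TTC, Lys-TTT and Gly-TCC did not pass. The Gln-TTG call was lost with DESeq2 (adjusted p = 0.585), with tRNA count sums as library sizes (adjusted p = 0.14) and with the fragment tables (adjusted p = 0.0883). Of 46 isoacceptors tested, 6.52% passed as higher and 17.4% as lower, 23.9% in all. The list's median log2 fold change was -0.27, beside -0.26 over all 46. By library the log2 ratios were 0.48 in A and 0.74 in B for Glu-TTC and -0.47 and -0.28 for Lys-TTT, whose anticodon also starts with a uridine.

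Of 9 tRNAs known as sources of abundant fragments in the male tract, Glu-CTC was higher, Gly-GCC was lower and 7 did not pass, Glu-TTC among them, with a list median of -0.26. The Gly-GCC call was lost with DESeq2 (adjusted p = 0.692), and the Glu-CTC call held in all of the settings tried. Over all lengths, the gene counts of sets 1 and 2 came to 5.06 reads per 100 Glu-CTC reads in wild type, 3.27 in A and 4.22 in B, and those of set 3 to 0.578, 1.19 and 0.853. At 31, 33 and 34 nt taken singly, set 3 differed little from library to library relative to Glu-CTC, as given above, and the 34-nt first-class share of the Glu-CTC fragment reads was itself 3.87% in wild type, 9.75% in A and 6.76% in B.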

How the data were processed

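Raw read counts of 5 RNA classes and of 446 tRNA genes, and reads per fragment length in 2 end classes, were used as deposited by the authors. Per the labels' protocols, total RNA was separated by size on a urea gel and pieces holding 15 to 50 nt went into a commercial small RNA library kit. The submitters' processing notes name cutadapt and mm10, without version or role. The sources used here name no aligner or counting tool and do not say how multiply matching reads were treated. Some tRNA modifications hinder reverse transcription, so altered modification and altered amount cannot be told apart in read counts.

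Reads were scaled to the sum of the 5 classes and summed by copy, set (the first number after the anticodon) and length. The 6 columns of end-class sums were not used. The tRNA gene counts came to 59.1 to 59.4% of the tRNA class, for a reason not stated.

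Isoacceptors with 10 or more reads in all, and fragments with 10 or more in each library, were fitted with edgeR 4.0.16 in R 4.3.3 (glmQLFTest, no composition factor, Benjamini-Hochberg adjustment), with DESeq2 1.42.0 as an alternative, after a trial on simulated data. The SE of a fold change was derived from its F statistic. Only the 2 Alkbh3-/- libraries gave a spread, which was applied to the single wild type library. Shares carry exact Clopper-Pearson 95% intervals, and 0 reads allow 3. Intervals and limits cover counting error only. Copies with 1% or more of the Glu-TTC reads were described singly, as were the 10 most abundant fragments, the 5 largest rises, the largest falls (up to 5) and the 3 most similar profiles. Members, lists and ranges were chosen with earlier results of these data known. The split by set and the comparison with Glu-CTC were made after the values were seen.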

Additional observations from a re-analysis of the deposited data

How the results depend on the processing

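The Glu-TTC log2 fold change, 0.64 with edgeR, kept its direction in all settings tried. It ranged from 0.46 without the set 3 copies to 0.93 with DESeq2, the only setting in which it passed the threshold. The cause was not tested. Leaving out library A or B gave 0.74 or 0.48. The median over isoacceptors moved from -0.26 to 0.01 with tRNA count sums as library sizes, where Glu-TTC stood at 0.90. The number of Glu-TTC fragments past the threshold was 2 with edgeR, 5 with TMM scaling, 5 with DESeq2 and 3 with fragment table sums as library sizes. Over all fragments these were 13, 48, 32 and 18, and DESeq2 called 3 of 46 isoacceptors where edgeR called 11. The 50-nt fragment did not pass with a filter of 30 reads in total. Glu-TTC was selected on its 22-nt and 50-nt values, so none of these calls is support for them. The mean fold of the 22-nt share over wild type was 5.09, and 2.04 within the second class, which grew as a whole. It was 4.65 for the 50-nt share, and 5.50 without set 3. It was 1.21 for the 34-nt share but 0.962 without set 3, an alternative added after seeing the data. Single libraries gave 4.09 to 6.10, 4.27 to 5.04 and 1.16 to 1.26. No paired analysis was possible because the wild type group has 1 library. Wild type counts below about 100 reads limit the rarer fragments.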
